A study of Mus musculus with 15 samples.

Results

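Cerebellar cells of postnatal day 6 mice were sorted by flow cytometry into a GFP-positive and a GFP-negative population, and RNA of 3 samples of each was measured on Affymetrix HT_MG-430_PM arrays, which read 1 colour. These 6 arrays are set against each other here. They were chosen by their source labels from the 15 arrays of the series, and 17097 genes were compared, each read by 1 probe set. The GFP-positive and the GFP-negative mice had the same genotype, Cdkn2c-/-, Trp53-/-, Atoh1-GFP, so that both populations lack the cell cycle inhibitor p18Ink4c and the tumour suppressor p53. The 3 tumour groups of 3 arrays each entered the fit to share its estimate of the spread and are otherwise used only for description. Shh-type tumours arose spontaneously in Cdkn2c-/-; Trp53Fl/Fl; Nestin-Cre mice, in which Cre is driven in neural progenitors. Myc-type primary tumours grew in the cortex of nude mice, which lack T cells, from Myc-infected cerebellar cells of the sorted genotype, and Myc-type secondary tumours from transplanted spheres cultured from the primary ones. The labels call the 6 sorted samples spontaneous tumour, whereas the design text calls them sorted populations of day 6 cerebella. How GFP was coupled to Atoh1 and how many animals a sample pooled are not given in the sources used here. The p-values therefore measure only the spread between arrays. That spread, and the standard errors below, are pooled over all 5 groups and so include the spread within the tumour groups. The GFP-negative population is whatever the sort left after removal of the GFP-positive cells, a mixture of cell types, so that each difference below sets 1 population against a mixture.

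Atoh1 is the proneural transcription factor that specifies the granule neuron lineage at the rhombic lip. In the first postnatal weeks of the mouse its cells divide in the external granule layer under Sonic hedgehog (Shh) released by Purkinje cells. They then leave the cell cycle, extend parallel fibres and migrate inward along Bergmann glia to become the glutamatergic granule neurons of the cerebellum. Granule neuron progenitors are also the cells from which Shh-type medulloblastomas arise.

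Signals are log2 values, and every difference is the GFP-positive mean minus the GFP-negative mean on that scale, with the standard error of the fit. A gene was called when its limma p was below 0.05 after Benjamini-Hochberg adjustment across the 17097 genes, and "rose" and "fell" are used of such genes only. A signal under 4.77 is described as below background; 95% of the 23 probe sets that control for nonspecific binding lay under that level. Unadjusted p was below 0.05 for 35.2% of genes, and the 2 groups of arrays did not overlap for 42.8% (23.2% higher, 19.6% lower). Where all 3 arrays of a group lay below background, the fold is a lower bound taken against that level and written "at least". Of all genes, 4505 (26.3%) were called, 2149 (12.6%) of them higher and 2356 (13.8%) lower, with a median difference of 0.04. The counts and medians of every gene list below are to be read beside these values. At least 2-fold differences were found for 950 genes (5.56%) that rose and 1776 (10.4%) that fell. Centring each array on its median gene moved the median difference to 0.54 and the calls to 7516 higher and 1612 lower, so the split between rises and falls depends on the scaling. The centred counts and medians of the gene lists below carry this shift of all genes. Pearson correlations across genes were 0.995 between the GFP-positive arrays and 0.963 to 0.983 between the GFP-negative arrays. GFP-negative 3 had the narrowest spread of signals, an interquartile range of 2.99 against 3.56 to 3.78 on the other sorted arrays. Its title number, with those of all GFP-positive arrays, belongs to a later run of numbers than those of GFP-negative 1 and 2, and whether that run marks a batch is not stated. Only the GFP-negative group has arrays in both runs. With a term for the run, each difference is therefore the GFP-positive mean minus GFP-negative 3 alone. That term cannot tell a batch from a trait of this 1 array, and calls said below to end with the title numbers as a term carry this limit.

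The markers of the sort followed the labels. Atoh1 read 8.97, 9.29 and 8.51 on the GFP-positive arrays and 3.75, 3.96 and 4.55, all below background, on the GFP-negative arrays. It rose by 4.84 ± 0.52 (adjusted p = 1.9e-05), at least 17.8-fold. Barhl1, a homeobox gene of migrating and postmitotic granule cells that acts downstream of Atoh1, read 9.17, 9.08 and 9.07 in GFP-positive cells, against 3.56, 3.88 and 4.42 in GFP-negative cells. It was at least 20.2-fold higher (5.15 ± 0.22, adjusted p = 1.8e-08). Neurod1, a bHLH factor that drives granule cell differentiation, stood at 13.35, 13.15 and 13.31 in GFP-positive cells and at 7.68, 9.45 and 9.58 in GFP-negative cells. Its rise of 4.36 ± 0.42 (adjusted p = 8.4e-06) left a signal above background on all GFP-negative arrays, lowest on GFP-negative 1. The groups of all 3 genes were separated by more than 3 log2 units.

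**Figure D1:**
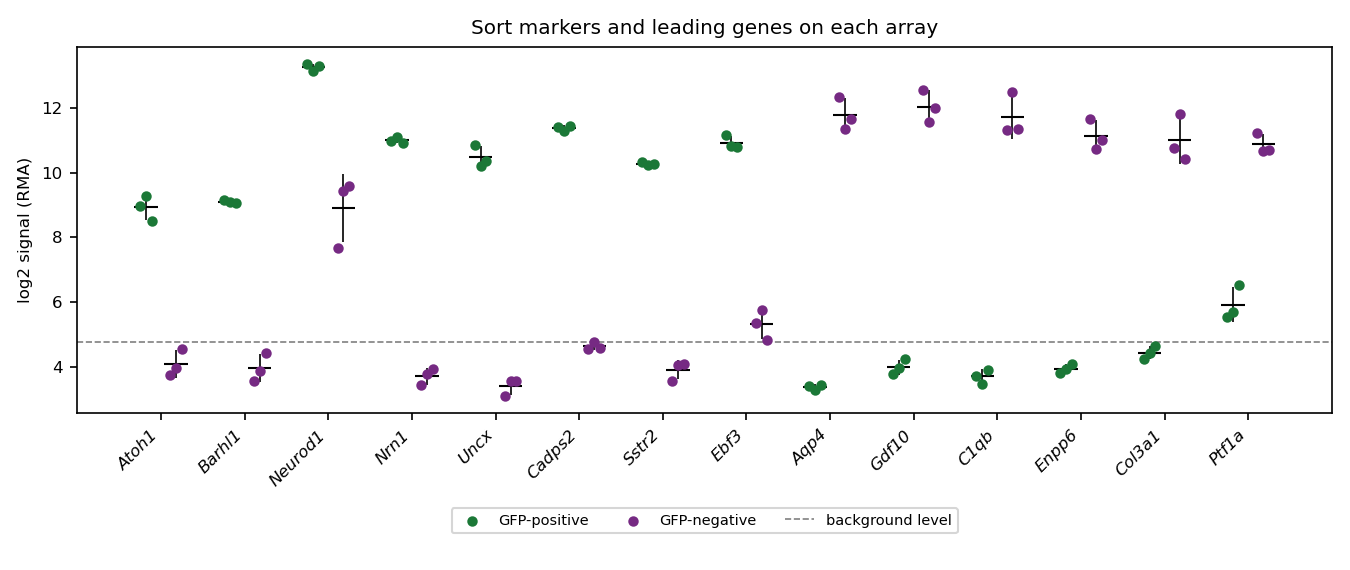
Log2 signal (vertical axis) of 14 genes on each sorted array, GFP-positive left of GFP-negative, with the mean and SD of 3 arrays as black bars and the background level of 4.77 as a dashed line. Atoh1, Barhl1, Nrn1, Uncx, Cadps2 and Sstr2 lay below background on all GFP-negative arrays, and Aqp4, Gdf10, C1qb, Enpp6 and Col3a1 on all GFP-positive arrays.

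The promoters of Neurod1 and Barhl1 are shown because both genes lie downstream of Atoh1 in mouse granule cells. In the mouse cerebellum Atoh1 binds an extended E-box known as AtEAM. The 250 bases before each annotated start are given from RefSeq, GRCm38.p6, 5′ to 3′ in the direction of the gene. The Neurod1 stretch is chr2:79456637-79456886, minus strand, with its AtEAM match in capitals. The Barhl1 stretch, before the first of its 2 annotated starts, is chr2:28916669-28916918, minus strand, with the E-box CAGCTG in capitals. The letters beside this CAGCTG do not make it an AtEAM match, and no other motif was marked in Barhl1.
Neurod1: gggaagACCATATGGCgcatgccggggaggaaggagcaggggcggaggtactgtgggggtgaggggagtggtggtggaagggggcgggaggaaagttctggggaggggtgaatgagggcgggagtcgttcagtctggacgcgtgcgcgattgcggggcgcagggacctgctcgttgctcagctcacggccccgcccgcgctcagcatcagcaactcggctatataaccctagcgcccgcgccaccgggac
Barhl1: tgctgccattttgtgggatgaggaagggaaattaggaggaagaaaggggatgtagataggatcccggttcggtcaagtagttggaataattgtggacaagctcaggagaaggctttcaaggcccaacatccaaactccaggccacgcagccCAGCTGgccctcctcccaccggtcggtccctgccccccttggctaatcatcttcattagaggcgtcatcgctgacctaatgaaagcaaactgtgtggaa
The match in Neurod1 spans bases 244 to 235 before the start, and that in Barhl1 bases 99 to 94. Both strands were searched over windows of 250 bases before to 50 after each start, and AtEAM can contain CAGCTG. AtEAM occurred in 1.98% of all 32851 RefSeq promoter windows and in 3 of 25 windows of the granule progenitor transcription factors described next. CAGCTG occurred in 16.3% of all windows and in 5 of those 25 (20.0%). Among windows of genes that rose at least 2-fold, AtEAM was present in 2.15% and CAGCTG in 16.5%. For genes that fell at least 2-fold these were 1.77% and 19.7%, and for all measured genes 1.69% and 16.5%. CAGCTG was most frequent in the microglia and macrophage list, in 10 of 18 windows (55.6%). It was present in 10.3% to 14.3% of windows of the other lists searched. A match is a description of letters and says nothing of binding.

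Of 27 transcription factors of granule neuron progenitors, 23 were measured; 15 rose and 1 fell, with a median difference of 0.76, against 12.6% and 13.8% of all genes and a median of 0.04. After cyclic loess 10 rises were called, and after centring 19. Nhlh1, a bHLH factor of newly born neurons, read 8.27, 7.88 and 7.92 in GFP-positive cells and 4.34, 4.86 and 4.14 in GFP-negative cells (3.58 ± 0.26, adjusted p = 1.2e-06). The zinc finger gene Zic2 rose by 2.17 ± 0.34 and its relative Zic5 by 1.80 ± 0.25. Zic genes are expressed by granule cells from the progenitor stage onward. Insm1, a zinc finger factor of neuronal progenitors leaving the cycle, read 11.26, 11.13 and 10.99 against 9.13, 9.24 and 8.54 in GFP-negative cells (2.15 ± 0.23, adjusted p = 2.1e-05). Tlx3, a homeobox gene of glutamatergic neurons, was at least 2.44-fold higher in GFP-positive cells. Mycn, the Myc family gene that Shh induces in these progenitors, read 10.65, 10.80 and 10.40 in GFP-positive cells and 9.66, 9.30 and 9.41 in GFP-negative cells. It rose by 1.16 ± 0.20 (adjusted p = 0.00097), and 2 of its 3 probe sets were called higher. Its GFP-negative signal was far above background, unlike that of Atoh1.

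Pax6, a paired box gene of the rhombic lip lineage, read 11.64, 11.60 and 11.72 in GFP-positive and 9.96, 9.56 and 10.01 in GFP-negative cells. The groups did not overlap, but its call (1.81 ± 0.60, adjusted p = 0.041) ended when any 1 of the 6 arrays was left out, with adjusted p between 0.067 and 0.12. The single fall was Neurog1, a proneural gene of the ventricular zone, which forms GABAergic cells. Neurog1 read 5.10, 4.86 and 4.42 in GFP-positive cells and 7.52, 7.01 and 7.06 in GFP-negative cells (-2.41 ± 0.18, adjusted p = 1.4e-06). Some members were high in both populations: Sox4 read 11.97 to 12.33 in GFP-positive cells and 12.24 to 12.35 in GFP-negative cells. Nfix and Sox11 rose by only 0.54 ± 0.13 and 0.62 ± 0.16, over a GFP-negative level already high, and lost their calls after cyclic loess and with the title numbers as a term. Lhx9 and Meis2 were below background on all 6 arrays.

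Among 28 measured genes of differentiating granule neurons (32 listed), 13 rose, 2 fell and 13 did not pass, with a median of 0.73. Cadps2, which primes dense-core vesicles for release and is carried by granule cells, read 11.42, 11.29 and 11.44 in GFP-positive cells and 4.55, 4.76 and 4.60 in GFP-negative cells, at least 98.0-fold higher (6.75 ± 0.51, adjusted p = 1.5e-06). Slc17a6, the vesicular glutamate transporter VGLUT2 of early granule neurons, read 8.84, 8.71 and 9.44 against 3.60, 3.47 and 4.66 in GFP-negative cells, at least 18.7-fold higher. Its later partner Slc17a7, which encodes VGLUT1, was below background on every sorted array. The same held for Gabra6 and Cbln3, a GABA receptor subunit and a secreted synaptic protein of mature granule neurons, and for the NMDA receptor subunit gene Grin2c. Grin2b, the subunit gene that precedes Grin2c in granule cell development, read 6.68, 6.17 and 7.10 in GFP-positive cells and 4.75, 4.94 and 5.42 in GFP-negative cells (1.62 ± 0.24, adjusted p = 0.00024). Early genes of the lineage were thus detected and these 4 late ones were not.

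Cntn2, the adhesion molecule TAG-1 of premigratory granule neurons, rose by 4.14 ± 0.40, with 8.87, 8.04 and 8.55 in GFP-positive and 4.02, 3.91 and 5.11 in GFP-negative cells. Tubb3, a neuronal tubulin, read 11.67, 11.15 and 11.64 against 7.43, 8.55 and 7.87 in GFP-negative cells (3.54 ± 0.30). Rbfox3, whose product NeuN marks postmitotic neurons, rose by 3.54 ± 0.16 (adjusted p = 2.6e-08). The GFP-positive population thus carried RNAs of postmitotic neurons beside those of progenitors. Reln, the secreted guidance protein reelin made by granule cells, read 12.21, 12.17 and 12.15 in GFP-positive cells and 9.11, 8.65 and 8.29 in GFP-negative cells (3.49 ± 0.32, adjusted p = 5.9e-06). Pde1c, a calcium-dependent phosphodiesterase, rose by 4.46 ± 0.25. The falls were Ntrk3, the neurotrophin-3 receptor TrkC, by 1.87 ± 0.22, and Plxna2, a semaphorin receptor, by 1.70 ± 0.29.

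The 15 largest rises, ranked by fitted difference, held further neuronal genes. Nrn1, which encodes the neurite growth factor neuritin, read 10.98, 11.09 and 10.92 in GFP-positive cells and 3.43, 3.77 and 3.93 in GFP-negative cells, at least 74.9-fold higher (7.28 ± 0.61, adjusted p = 2.8e-06). The homeobox gene Uncx read 10.87, 10.20 and 10.35 against 3.10, 3.56 and 3.58 in GFP-negative cells, at least 52.2-fold higher. Both genes were above background in the GFP-positive cells alone. Mab21l1, a gene of neural and eye development, rose by 6.53 ± 0.93 (adjusted p = 0.00019), and Ebf3, an early B-cell factor family gene of postmitotic neurons, by 5.62 ± 0.35 (adjusted p = 3.7e-07). Sstr2, a receptor for somatostatin, was at least 45.7-fold higher (10.33, 10.25 and 10.27 against 3.57, 4.07 and 4.08). Sphkap, an anchor for protein kinase A, was at least 54.5-fold higher, and Cacna2d1, an auxiliary calcium channel subunit, at least 32.8-fold. Genes of axon growth were also among the 15: Gap43, a growth cone protein, rose by 5.0 ± 0.54, and Stmn2, a tubulin-binding protein of growing axons, by 4.93 ± 0.47. Nefl, the neurofilament light chain, rose by 5.16 ± 1.04 (adjusted p = 0.0025). Tex14, known from intercellular bridges of mouse germ cells, was at least 21.2-fold higher, and Clmp, an adhesion molecule, rose by 4.92 ± 0.37.

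Genes of synaptic vesicles and exocytosis rose in 12 of 25 measured cases (of 28 listed) and fell in none, with a median of 1.0. Pclo, a scaffold of the presynaptic active zone, read 9.27, 9.12 and 9.20 in GFP-positive cells and 7.07, 6.55 and 5.56 in GFP-negative cells (2.80 ± 0.35, adjusted p = 6.4e-05). Snap25, a membrane fusion protein, rose by 2.65 ± 0.32, and Syp, the vesicle protein synaptophysin, by 2.34 ± 0.29. Syn1, a vesicle phosphoprotein of mature terminals, rose by only 0.91 ± 0.19, to 5.82, 5.91 and 6.22 in GFP-positive cells, against 5.05, 5.21 and 4.95 in GFP-negative cells. Its signals were close to background in both groups.

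Of 28 measured mitosis genes (30 listed), 22 rose and none fell, with differences between 0.61 and 1.5 and a median of 0.84. Of 28 measured DNA replication genes (30 listed), 15 rose and none fell, with a median of 0.73. Kif11, a spindle motor, read 8.10, 8.80 and 7.98 in GFP-positive cells and 7.33, 6.93 and 6.13 in GFP-negative cells (1.5 ± 0.30, adjusted p = 0.0022). Cdk1, the kinase that drives entry into mitosis, read 11.04, 11.41 and 10.93 against 10.41, 10.43 and 10.46 in GFP-negative cells, a rise of 0.70 ± 0.15 (adjusted p = 0.0039). Both groups thus carried it at a level far above background, separated by less than 2-fold. Ube2c, which charges the anaphase-promoting complex with ubiquitin, read 12.10, 12.17 and 11.74 in GFP-positive cells and 10.92, 10.76 and 10.85 in GFP-negative cells (1.15 ± 0.17, adjusted p = 0.00023). Ccnb2, a mitotic cyclin, rose by 1.16 ± 0.22, Aurka, a spindle pole kinase, by 1.32 ± 0.25, Nek2, a centrosome kinase, by 1.44 ± 0.18 and Top2a, the topoisomerase of dividing cells, by 0.69 ± 0.15. GFP-positive 2 had the highest signal of Cdk1, Ccnb2, Kif11 and Top2a.

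In replication, Tyms, the enzyme of thymidylate synthesis, rose by 1.30 ± 0.23, with 9.63, 9.99 and 9.52 in GFP-positive cells and 8.52, 8.61 and 8.10 in GFP-negative cells. Cdc45, a subunit of the replicative helicase, rose by 1.29 ± 0.36 (adjusted p = 0.016), a call that ended without GFP-negative 3 (adjusted p = 0.058) or GFP-positive 2 (0.059). Pcna, the sliding clamp, read 12.61, 12.83 and 12.58 in GFP-positive and 12.52, 12.45 and 12.57 in GFP-negative cells (0.16 ± 0.11, adjusted p = 0.35). The replication count depended on single arrays: 7 of 28 were called without GFP-negative 3, which read lowest for most of these genes, and 7 without GFP-positive 2. After cyclic loess the counts were 11 for replication and 17 for mitosis, and after centring 27 and 28. The call of Mki67, which encodes the proliferation antigen Ki-67, ended without GFP-negative 2 or 3 or GFP-positive 1 or 2 (0.71 ± 0.21, adjusted p = 0.025, and 0.062 to 0.092 without them).

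**Figure D2:**
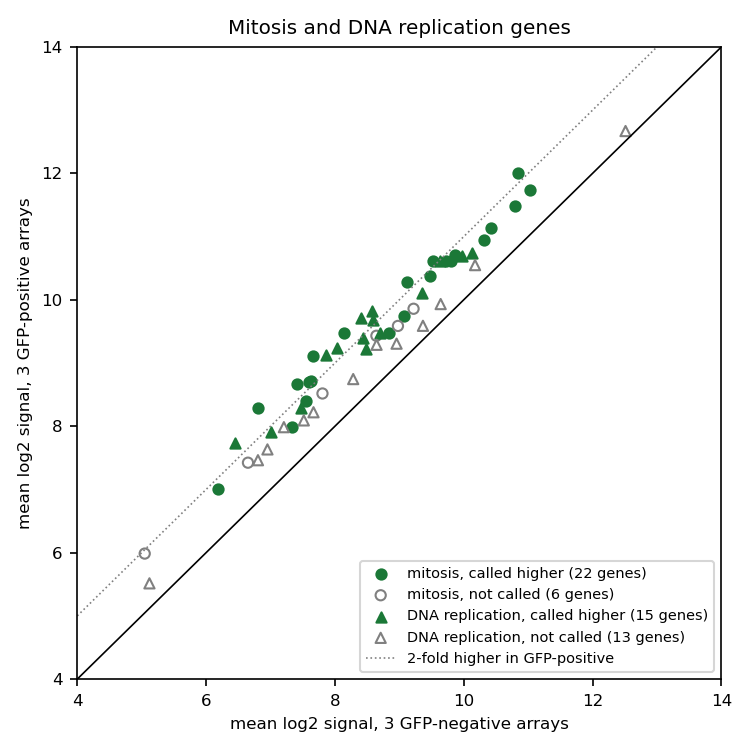
Mean log2 signal of each mitosis and DNA replication gene in GFP-positive cells (vertical axis) against that in GFP-negative cells (horizontal axis), 3 arrays each; filled symbols were called higher, the solid line marks equal signal and the dotted line a 2-fold difference. All 56 genes lay above the line of equal signal, by 0.16 to 1.5 log2 units.

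Promoters of mitotic genes are known in mammals for CCAAT boxes, bound by NF-Y, beside a cell cycle homology region with the letters TTTGAA. They are shown for 4 mitosis genes that rose together, as the 250 bases before the start from RefSeq, GRCm38.p6, with both motifs in capitals on either strand (ATTGG and TTCAAA are their reverse). The stretches are chr10:69352913-69353162 on the minus strand for Cdk1, chr9:70421555-70421804 on the minus strand for Ccnb2, chr2:164769679-164769928 on the plus strand for Ube2c and chr11:99024190-99024439 on the minus strand for Top2a.
Cdk1: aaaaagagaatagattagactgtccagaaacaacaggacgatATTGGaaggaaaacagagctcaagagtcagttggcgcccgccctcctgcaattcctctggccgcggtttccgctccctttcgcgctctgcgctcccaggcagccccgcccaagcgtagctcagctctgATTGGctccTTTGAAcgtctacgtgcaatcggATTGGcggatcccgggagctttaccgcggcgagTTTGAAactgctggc
Ccnb2: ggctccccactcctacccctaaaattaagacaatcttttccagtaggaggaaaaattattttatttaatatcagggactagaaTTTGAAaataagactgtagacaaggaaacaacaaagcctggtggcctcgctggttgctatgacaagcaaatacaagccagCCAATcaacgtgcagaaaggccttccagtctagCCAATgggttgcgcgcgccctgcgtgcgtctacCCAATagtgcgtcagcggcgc
Ube2c: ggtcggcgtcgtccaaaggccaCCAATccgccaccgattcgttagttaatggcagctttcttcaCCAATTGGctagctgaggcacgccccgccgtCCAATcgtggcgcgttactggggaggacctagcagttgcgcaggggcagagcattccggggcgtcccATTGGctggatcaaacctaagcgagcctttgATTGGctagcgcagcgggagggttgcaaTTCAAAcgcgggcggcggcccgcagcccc
Top2a: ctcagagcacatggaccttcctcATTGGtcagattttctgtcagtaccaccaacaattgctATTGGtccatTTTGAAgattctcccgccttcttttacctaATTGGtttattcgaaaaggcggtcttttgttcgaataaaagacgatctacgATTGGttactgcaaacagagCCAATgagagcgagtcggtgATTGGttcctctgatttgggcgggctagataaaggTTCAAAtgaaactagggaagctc
CCAAT occurred 3 times before Cdk1, 3 times before Ccnb2, 6 times before Ube2c and 6 times before Top2a, and TTTGAA 2, 1, 1 and 2 times in that order. The TTTGAA nearest the start spans bases 15 to 10 in Cdk1, 29 to 24 in Ube2c and 23 to 18 in Top2a. In Ccnb2 it spans bases 167 to 162, farther from the start than its CCAAT boxes (87 to 17). Whether that match is a cell cycle homology region was not tested. In the windows around each start, CCAAT was present in 19 of 23 windows of the mitosis list (82.6%) and in 37.4% of all windows. TTTGAA was present in 18 of those 23 (78.3%) and in 17.9% of all windows. The replication list held CCAAT in 18 of 29 windows (62.1%) and TTTGAA in 3 (10.3%), while TTTCCCGC, a site of E2F factors, was present in 5 of 29 (17.2%) against 1.07% of all windows. The windows of all genes that rose at least 2-fold held CCAAT in 39.2% and TTTGAA in 12.3%. Those of genes that fell at least 2-fold held them in 35.3% and 10.8%. These sets and lists hold measured genes only. The windows of all measured genes had CCAAT in 37.6%, TTTGAA in 13.4% and TTTCCCGC in 1.55%. A CCAAT box and its reverse overlap once before Ube2c, as a run of 8 letters.

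Of the 25 genes of the G1 phase, 7 rose and 1 fell, with a median of 0.37. E2f1, an activator of S phase genes, read 8.60, 8.68 and 8.41 in GFP-positive cells and 6.72, 6.89 and 6.47 in GFP-negative cells (1.87 ± 0.13, adjusted p = 1e-06), and E2f2 rose by 1.49 ± 0.25. Ccnd1, a D-type cyclin induced by Shh in granule progenitors, read 10.43, 10.75 and 10.18 against 9.19, 9.34 and 9.52 in GFP-negative cells (1.10 ± 0.22, adjusted p = 0.0027). Among inhibitors of cyclin-dependent kinases, Cdkn1b, which encodes p27Kip1 of granule cells leaving the cycle, read 11.66, 11.34 and 11.39 against 10.16, 10.01 and 9.81 (1.47 ± 0.15, adjusted p = 1.6e-05). Cdkn2d, which encodes p19Ink4d, rose by 1.32 ± 0.25. The 1 fall was that of Ccnd3, another D-type cyclin, which fell by 1.81 ± 0.32. Cdkn2c, deleted in all these mice, read 3.52, 3.48 and 3.54 in GFP-positive and 3.47, 3.31 and 3.62 in GFP-negative cells, below background throughout. Where its probes lie relative to the deleted part is not given in the sources used here. Trp53, without a probe set of its own, was not analysed here.

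Of 20 p53 target genes, 19 were measured in these p53-deficient cells, and 1 rose while 3 fell, with a median of -0.02. These counts are close to the shares of all genes, 12.6% higher and 13.8% lower. After centring 8 were called higher and 2 lower, with a median of 0.48, beside a median of 0.54 for all genes. Cdkn1a, a p53 target and kinase inhibitor, read 6.79, 6.98 and 7.25 in GFP-positive cells and 5.97, 8.52 and 7.51 in GFP-negative cells, and the groups overlapped. Plk2, a kinase that is both a p53 target and induced by activity and stress, read 5.66, 5.86 and 6.36 against 9.18, 9.36 and 9.23 in GFP-negative cells (-3.30 ± 0.46, adjusted p = 0.00017). The other calls, the falls of Pmaip1 and Btg2 and the rise of Gadd45a, each ended when single arrays were left out.

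In the Myc family, Mycn rose as above, and Mycl read 8.27, 8.52 and 8.26 in GFP-positive and 8.98, 8.5 and 7.66 in GFP-negative cells (-0.03 ± 0.36, adjusted p = 0.96). Myc read 7.37, 7.39 and 6.68 in GFP-positive cells and 8.70, 8.55 and 8.56 in GFP-negative cells, and the groups did not overlap. Its difference of -1.46 ± 0.74 did not pass in the fit over 5 groups (adjusted p = 0.18), whose spread includes that of the Myc tumours, but passed on the 6 sorted arrays alone (adjusted p = 0.0037). Of 11 measured genes of the Myc and Max network (12 listed), 3 rose (Mycn, Mxd3 and Mlx) and none fell, with a median of 0.39. The call of Mlx ended without GFP-positive 1 (adjusted p = 0.052) and with the title numbers as a term (0.065). Mxd3, a Max partner of proliferating progenitors, read 8.64, 8.25 and 8.27 against 7.45, 7.18 and 6.69 in GFP-negative cells (1.28 ± 0.25, adjusted p = 0.0019).

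Of 23 measured genes of the Shh pathway (25 listed), 8 rose, 3 fell and 12 did not pass, with a median of 0.31. Among all genes 12.6% rose and 13.8% fell, so the falls are near that share. In this pathway Shh inhibits its receptor Ptch1, which frees Smo to activate the Gli factors; Boc is a co-receptor and Hhip a decoy that binds Shh. The ligand gene Shh itself read 3.40, 3.70 and 3.84 in GFP-positive and 3.51, 3.48 and 3.83 in GFP-negative cells, below background in both. Ptch1, receptor and target, read 10.68, 10.52 and 10.30 in GFP-positive cells and 11.05, 10.53 and 10.66 in GFP-negative cells (-0.25 ± 0.89, adjusted p = 0.89). Its standard error includes the spread of the Shh-type tumours (SD 2.67), whereas the SD was 0.19 in GFP-positive and 0.27 in GFP-negative cells. Smo read 8.79, 8.86 and 8.78 against 9.0, 8.78 and 8.46 in GFP-negative cells (0.06 ± 0.16, adjusted p = 0.84). Receptor and transducer were thus detected on all 6 arrays, with overlapping values. Boc rose by 1.38 ± 0.26, with 8.38, 8.94 and 8.28 in GFP-positive and 7.28, 7.0 and 7.17 in GFP-negative cells (adjusted p = 0.0014). Hhip read 3.95, 4.45 and 4.17, below background, in GFP-positive cells and 9.57, 8.99 and 8.94 in GFP-negative cells, at least 21.1-fold lower (-4.98 ± 0.67, adjusted p = 0.00012). The third fall was that of Kif7, a ciliary regulator of Gli factors, whose call (-0.81 ± 0.26, adjusted p = 0.038) ended when any 1 array was left out.

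Gli1, the activator that is itself a target, read 7.98, 8.21 and 7.66 in GFP-positive cells and 7.59, 6.95 and 6.46 in GFP-negative cells. Its rise of 0.95 ± 0.27 (adjusted p = 0.019) was 0.68 without GFP-negative 3 (adjusted p = 0.072). The call also ended without GFP-negative 2 (0.93, adjusted p = 0.056), GFP-positive 1 (0.94, adjusted p = 0.059) or GFP-positive 2 (0.82, adjusted p = 0.084). Gli2, the other main activator, read 9.34, 9.57 and 9.17 against 8.63, 8.19 and 8.32 in GFP-negative cells, without overlap (0.98 ± 0.54, adjusted p = 0.23, and 0.0082 on the 6 sorted arrays alone). Gli3, mainly a repressor, fell by 2.08 ± 0.27, with 6.32, 6.33 and 6.29 in GFP-positive and 8.68, 8.25 and 8.24 in GFP-negative cells (adjusted p = 0.00011). Of its 2 probe sets, 1 was called lower. Sfrp1, a secreted Wnt modulator that Shh induces in granule progenitors, also rose. It read 10.96, 11.09 and 10.81 in GFP-positive cells and 6.15, 6.27 and 5.73 in GFP-negative cells (4.90 ± 0.25, adjusted p = 7.5e-08). Without GFP-positive 2 the list's count of rises was 5. GACCACCCA, the Gli binding site, was in none of the 23 promoter windows of the list and in 0.253% of all windows.

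**Figure D3:**
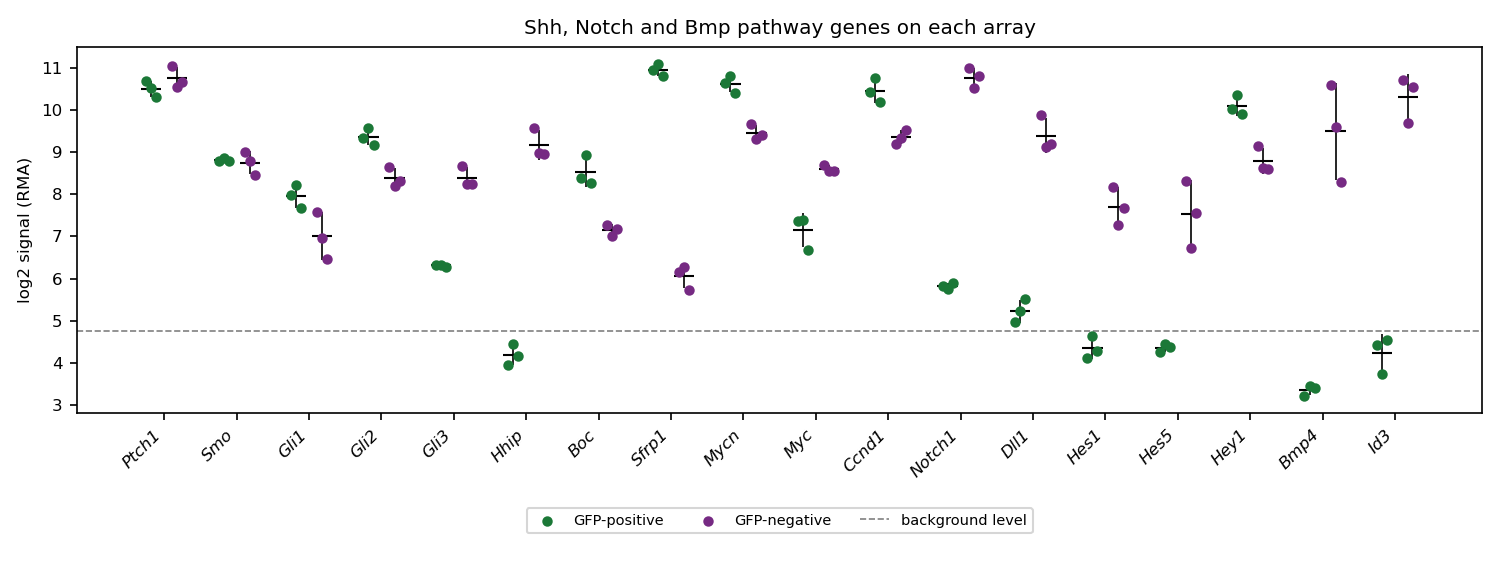
Log2 signal (vertical axis) of 18 Shh, Notch and Bmp pathway genes on each sorted array, GFP-positive left of GFP-negative, with the mean and SD of 3 arrays and the background level of 4.77. Ptch1 and Smo overlap between the groups, and Hhip, Hes1, Hes5, Bmp4 and Id3 were below background on all GFP-positive arrays.

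The Notch pathway keeps neural progenitors and glia undifferentiated through contact between neighbouring cells. Of 21 measured genes (22 listed), 3 rose, 9 fell and 9 did not pass, against 12.6% of all genes higher and 13.8% lower. The rises are near that share. The median was -0.59, and -0.09 after centring, when that of all genes was 0.54. The receptor Notch1 read 5.82, 5.76 and 5.89 in GFP-positive and 10.98, 10.51 and 10.80 in GFP-negative cells (-4.94 ± 0.45, adjusted p = 5.4e-06). The ligand Dll1 read 4.96, 5.22 and 5.51 against 9.87, 9.11 and 9.18 (-4.16 ± 0.50, adjusted p = 4.8e-05). Receptor and ligand were close to background on every GFP-positive array. Hes1 and Hes5, the transcriptional repressors through which Notch acts, were below background on all GFP-positive arrays and at least 7.66-fold and 6.81-fold lower. Jag1, another ligand, was at least 2.46-fold lower, a call that ended with the title numbers as a term. Another target differed: Hey1 read 10.02, 10.36 and 9.91 in GFP-positive cells and 9.15, 8.61 and 8.59 in GFP-negative cells (1.31 ± 0.34, adjusted p = 0.012), a call that ended without GFP-positive 2 (1.18, adjusted p = 0.053). Numbl, a relative of a Notch inhibitor, rose by 1.93 ± 0.17, with 8.30, 8.05 and 8.14 against 6.22, 6.18 and 6.30 in GFP-negative cells (adjusted p = 3.5e-06). The third rise was Mfng, a glycosyltransferase that modifies Notch (1.79 ± 0.59, adjusted p = 0.041). Its call ended without any single array but GFP-negative 2 (adjusted p = 0.062 to 0.12), after cyclic loess (0.081) and with the title numbers as a term (0.087). Without GFP-positive 2 the list held 1 rise.

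Bone morphogenetic proteins (Bmp) oppose Shh in granule progenitors, and Id proteins, their targets, block bHLH factors. Of 23 measured genes (24 listed), 1 rose and 12 fell, with a median of -0.59. The ligand Bmp4 read 3.21, 3.45 and 3.41 in GFP-positive cells and 10.58, 9.60 and 8.29 in GFP-negative cells, at least 26.3-fold lower (-6.13 ± 0.83, adjusted p = 0.00013). Id3 was at least 46.7-fold lower, with 4.44, 3.75 and 4.55 against 10.72, 9.69 and 10.53. Id4 fell by 5.49 ± 0.83, and Id1 by 2.50 ± 0.57 to 9.07, 8.95 and 8.51 in GFP-positive cells, against 11.63, 10.82 and 11.59 in GFP-negative cells. Id1 was the one of these that stayed well above background in GFP-positive cells, and Id2 read 11.32 to 12.05 in GFP-positive and 11.51 to 11.76 in GFP-negative cells. The rise was Chrd, a secreted Bmp antagonist, with 8.16, 8.38 and 8.01 against 5.60, 5.76 and 5.85 in GFP-negative cells (2.45 ± 0.25, adjusted p = 1.2e-05).

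Among 27 measured Wnt pathway genes (28 listed), 7 rose and 9 fell, against 12.6% and 13.8% of all genes, with a median of -0.02. After centring these were 10 and 7, with a median of 0.48, beside a median of 0.54 for all genes. Beside Sfrp1, Nkd1, an intracellular Wnt inhibitor, rose by 2.78 ± 0.24, with 10.46, 9.67 and 9.98 in GFP-positive and 7.31, 7.43 and 7.03 in GFP-negative cells. Fzd7, a Wnt receptor, rose by 2.65 ± 0.32 and Apc, part of the complex that destroys beta-catenin, by 1.32 ± 0.32. The ligand Wnt5a fell by 2.93 ± 0.16, and Dkk3, a secreted member of the Dickkopf family, was at least 14.2-fold lower. Of 24 measured genes of Fgf, insulin-like growth factor and neurotrophin signalling (26 listed), 2 rose and 13 fell, with a median of -1.49. The rises were Fgf9, a fibroblast growth factor, at least 6.91-fold (7.67, 7.51 and 7.49 against 3.83, 3.76 and 4.15), and Ngfr, the neurotrophin receptor p75, by 3.19 ± 0.20 (7.57, 7.97 and 7.54 against 4.08, 4.87 and 4.57). The receptor genes Fgfr1 and Fgfr2 fell, Fgfr1 by 2.68 ± 0.25 and Fgfr2 at least 13.5-fold. So did the targets Etv5, by 4.37 ± 0.35, and Spry1, by 4.10 ± 0.40.

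Among 28 measured genes of guidance and migration (32 listed), 5 rose and 9 fell, against 12.6% and 13.8% of all genes, with a median of -0.14. After centring these were 9 and 8, with a median of 0.36, beside a median of 0.54 for all genes. Ntn1, the guidance cue netrin-1, read 9.90, 10.15 and 9.82 in GFP-positive cells and 7.59, 7.88 and 6.87 in GFP-negative cells (2.51 ± 0.46, adjusted p = 0.0012). Its receptor gene Unc5b rose by 2.09 ± 0.34, and Robo2, a Slit receptor, was at least 3.10-fold higher. The other rises were Plxnb2, a semaphorin receptor, by 1.47 ± 0.22 and Efnb1, an ephrin, by 0.73 ± 0.18. Ackr3, the scavenger receptor of the chemokine Cxcl12, was at least 16.9-fold lower, with 3.50, 3.32 and 3.55 against 9.20, 8.25 and 9.09. Nrp1, a semaphorin co-receptor, fell by 4.80 ± 0.65. Receptor subunits for glutamate and GABA showed 4 rises and 10 falls among 27 measured (33 listed), with a median of -0.11. The rises are near the 12.6% of all genes that rose, and 13.8% of all genes fell. After centring 9 were called higher and 9 lower, with a median of 0.39, beside a median of 0.54 for all genes. Gria1, an AMPA receptor subunit carried by Bergmann glia, read 3.54, 3.58 and 3.65 in GFP-positive cells and 10.67, 10.18 and 10.19 in GFP-negative cells, at least 47.7-fold lower (-6.76 ± 0.16, adjusted p = 4.6e-11). Grm3, a metabotropic receptor, fell by 5.41 ± 0.22 and Gabrb1, a GABA receptor subunit, at least 17.2-fold. Grik2, a kainate receptor subunit, rose by 2.88 ± 0.31, with 8.97, 8.60 and 8.85 against 6.27, 5.73 and 5.76 in GFP-negative cells. Gabra2, a GABA receptor subunit, was at least 1.16-fold higher. The call of Gria2, an AMPA receptor subunit (1.21 ± 0.37), ended without any single array but GFP-negative 1 (adjusted p = 0.066 to 0.093), after cyclic loess (0.07) and with the title numbers as a term (0.092). The other rise was that of Grin2b, described above.

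**Figure D4:**
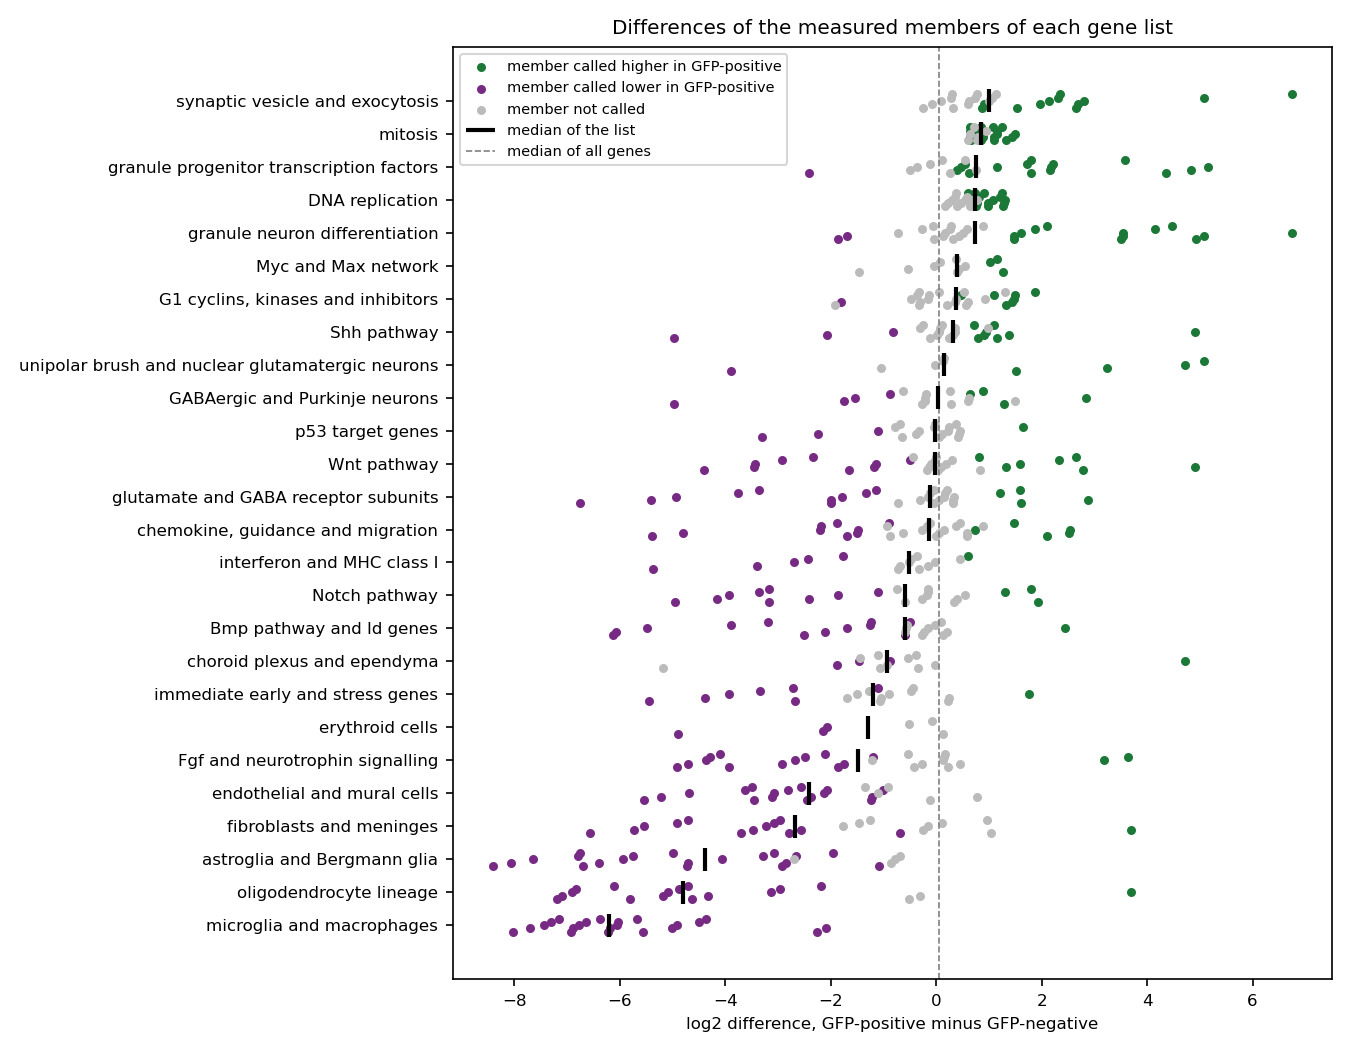
Log2 difference, GFP-positive minus GFP-negative (horizontal axis), of each measured member of 26 gene lists, 1 list per row; black bars are list medians and the dashed line is the median of all genes, 0.04. Medians run from -6.20 for microglia and macrophages to 1.0 for synaptic vesicle and exocytosis genes.

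Of 24 measured markers of astroglia and Bergmann glia (26 listed), 20 fell and none rose, with a median of -4.38, and 10 were below background on all GFP-positive arrays. In these bulk populations, fewer cells of a type and less RNA per cell cannot be told apart. The summed signal of the list was 5447 to 5893 in GFP-positive cells and 58665 to 87436 in GFP-negative cells. Aqp4, the water channel of astrocyte endfeet, read 3.42, 3.27 and 3.45 in GFP-positive cells and 12.35, 11.35 and 11.65 in GFP-negative cells, at least 129-fold lower (-8.40 ± 1.05, adjusted p = 6.5e-05). Gdf10, a growth factor gene of Bergmann glia, was at least 154-fold lower (-8.05 ± 0.40, adjusted p = 6.6e-08). Neither gene was detected in GFP-positive cells. Tnc, the matrix protein tenascin C of radial and Bergmann glia, was at least 107-fold lower, and Ednrb, the endothelin receptor B of glia, at least 169-fold. Aldh1l1, a folate enzyme of astrocytes, was at least 53.3-fold lower.

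Other glial markers stayed detectable in the GFP-positive cells. Fabp7, a fatty acid binding protein of radial and Bergmann glia, read 8.42, 8.51 and 8.59 in GFP-positive cells and 13.82, 12.97 and 13.68 in GFP-negative cells (-4.98 ± 0.98, adjusted p = 0.0022). Sox2, a factor of neural stem cells and glia, read 6.06, 6.08 and 6.90 against 11.22, 10.59 and 11.33 (-4.70 ± 0.66). Vim, the intermediate filament vimentin, read 11.08, 11.05 and 11.19 in GFP-positive cells and fell by 1.96 ± 0.46. Sox9, another glial factor, read 7.56, 7.64 and 7.60 against 8.58, 7.75 and 8.52 and did not pass (-0.68 ± 0.25, adjusted p = 0.062). None of these 4 genes overlapped between the groups. The same held for all 24 measured members of the list and, in this direction, for 19.6% of all genes.

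Of 18 measured oligodendrocyte lineage genes (22 listed), 15 fell and 1 rose, with a median of -4.79 and summed signals of 778 to 923 in GFP-positive and 14438 to 28410 in GFP-negative cells. The lineage factors Olig1 and Olig2 were below background on all GFP-positive arrays, at least 46.8-fold and 23.8-fold lower. Enpp6, a phosphodiesterase of newly formed oligodendrocytes, was at least 82.9-fold lower, and Gpr17, a receptor of committed precursors, at least 72.2-fold. Mbp, myelin basic protein, read 5.40, 5.07 and 5.70 against 12.53, 12.20 and 11.92 in GFP-negative cells (-6.82 ± 0.88, adjusted p = 8.9e-05). The exception was Pdgfra, the receptor that marks oligodendrocyte precursors and fibroblasts, which read 8.5, 9.06 and 8.51 in GFP-positive cells and 5.26, 5.50 and 4.23 in GFP-negative cells. Pdgfra rose by 3.69 ± 0.45 (adjusted p = 6.1e-05), and Olig1, Olig2 and the fibroblast gene Dcn were below background in the same cells.

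All 22 measured markers of microglia and macrophages (23 listed) fell, with a median of -6.20, and 16 were below background on all GFP-positive arrays. Their summed signal was 347 to 459 in GFP-positive cells and 23998 to 57080 in GFP-negative cells. C1qb, a complement subunit, read 3.72, 3.48 and 3.91 in GFP-positive cells and 11.31, 12.50 and 11.35 in GFP-negative cells, at least 124-fold lower (-8.01 ± 0.34, adjusted p = 1.8e-08). Ly86, Ctss and Tyrobp, which encode an immune receptor partner, the protease cathepsin S and a signalling adaptor, fell by 7.71 ± 0.62, 7.44 ± 0.38 and 7.30 ± 0.50. Cd83, of activated immune cells, was at least 115-fold lower, and Lyz2, the lysozyme of myeloid cells, at least 43.2-fold. GFP-negative 2 had the highest signal of the 22 genes as a group, a mean of 10.8 against 9.46 on the lowest GFP-negative array, and GFP-positive 3 the highest of its own, 4.25 against 3.92 on the lowest.

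Vessel and connective tissue genes fell too. Of 22 measured endothelial and mural markers (24 listed) 17 fell and none rose (median -2.41), with summed signals of 505 to 550 in GFP-positive and 3637 to 7438 in GFP-negative cells. Rgs5, of pericytes, was at least 14.1-fold lower, and Kdr, the endothelial VEGF receptor, fell by 2.80 ± 0.35. Among 22 fibroblast and meningeal genes 13 fell (median -2.67), and the 1 rise was Pdgfra; the sums were 1469 to 1597 in GFP-positive and 6379 to 13823 in GFP-negative cells. Col3a1, a fibrillar collagen, was at least 75-fold lower. Of 6 measured erythroid genes (10 listed) 3 fell (median -1.30), and Hba-a1, alpha globin, read 8.20, 7.70 and 11.38 in GFP-positive cells and 13.85, 13.96 and 14.12 in GFP-negative cells. Tal1 and Alas2, a factor and a haem enzyme of red cell precursors, fell as well. Hba-a1 fell by 4.89 ± 0.80 but stayed well above background on all 3 GFP-positive arrays, highest on GFP-positive 3. Of 13 measured choroid plexus and ependymal genes (14 listed), 3 fell and 1, Otx2, rose (median -0.94), and the sums were 554 to 660 in GFP-positive and 576 to 9258 in GFP-negative cells. Among all genes 13.8% fell and 12.6% rose, so these counts alone do not set the list apart. The 3 falls of the list were Tmem212, Ccdc153 and Rsph1, genes of ciliated cells. With the title numbers as a term none of these 3 kept its call. The call of Rsph1 also ended after centring, on the 6 sorted arrays alone (adjusted p = 0.10) and without GFP-positive 1 or 3 or GFP-negative 2. Ttr, transthyretin of the choroid plexus, read 4.10, 4.10 and 6.54 in GFP-positive cells and 8.47, 13.06 and 8.76 in GFP-negative cells, and did not pass (-5.18 ± 1.89, adjusted p = 0.062). GFP-negative 2 thus stood apart for this list, whose median was -0.27 without it. Ttr was called lower on the 6 sorted arrays alone (adjusted p = 0.03), after centring (0.036), with the mean of probe sets (0.048) and with array weights (0.0019). It stayed uncalled after cyclic loess and whichever single array was left out.

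**Figure D5:**
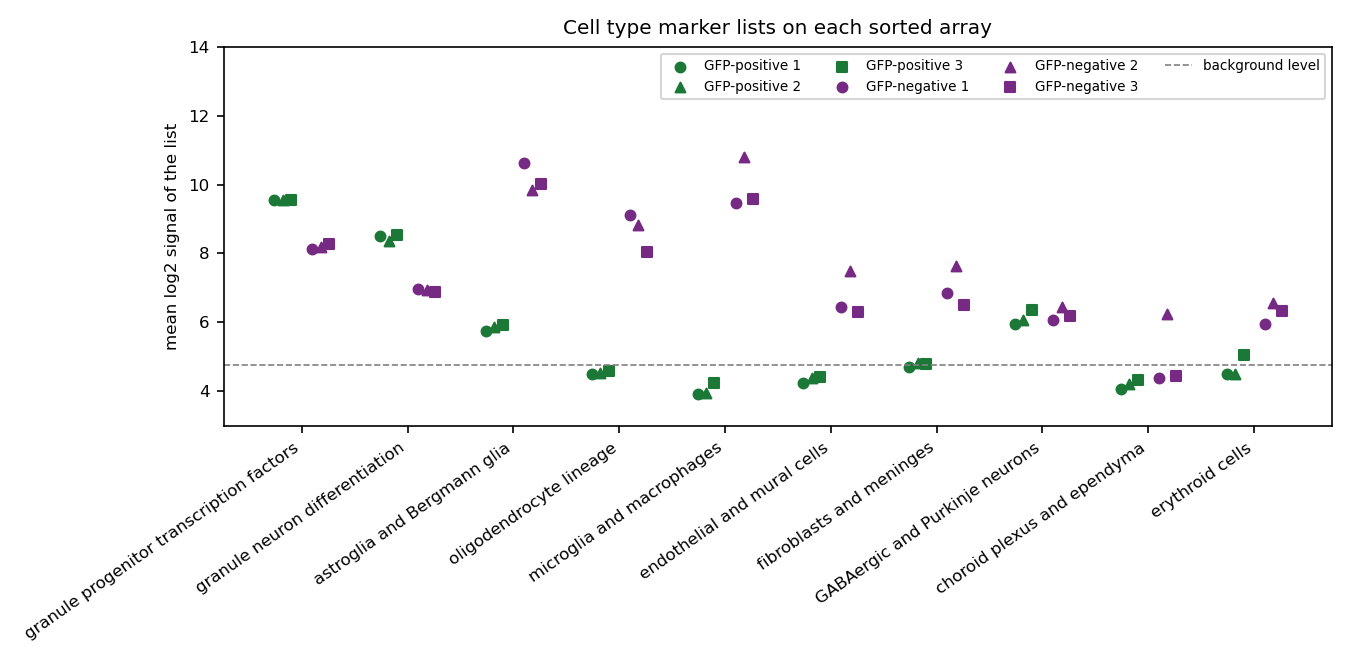
Mean log2 signal over the measured members of 10 cell type lists (vertical axis), 1 symbol per sorted array, GFP-positive left of GFP-negative, with the background level of 4.77 dashed. The astroglial, oligodendrocyte, microglial, vascular and fibroblast lists were lower on every GFP-positive array, the GABAergic list overlapped, and GFP-negative 2 was highest for choroid plexus and ependyma.

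Of 18 measured genes of GABAergic and Purkinje neurons (26 listed), 4 rose and 4 fell, with a median of 0.04. Among all genes 12.6% rose and 13.8% fell. After centring 9 of the list were called higher and 3 lower, with a median of 0.54, which was also that of all genes. The uncentred values of the list had summed signals of 3457 to 4502 in GFP-positive and 4749 to 5422 in GFP-negative cells. Ptf1a, the bHLH factor that specifies the GABAergic neurons of the cerebellum, read 5.53, 5.70 and 6.53 in GFP-positive cells and 11.24, 10.68 and 10.72 in GFP-negative cells (-4.96 ± 0.23, adjusted p = 3.5e-08). Tfap2b, a factor downstream of Ptf1a, read 8.34, 8.67 and 9.59 against 9.81, 10.49 and 10.94 (-1.55 ± 0.31, adjusted p = 0.0023). Lhx1, a homeobox gene of Purkinje cells, went the other way with 10.67, 10.68 and 10.52 in GFP-positive cells and 7.64, 8.03 and 7.66 in GFP-negative cells (2.84 ± 0.30, adjusted p = 1.8e-05). Slc6a5, the glycine transporter, rose by 1.28 ± 0.27 to 5.69, 5.56 and 5.99 in GFP-positive cells, against 3.88, 5.28 and 4.22 in GFP-negative cells. Gad1, which makes GABA, read 9.10, 8.98 and 9.77 in GFP-positive and 7.69, 9.15 and 8.35 in GFP-negative cells, where GFP-negative 2 overlapped the GFP-positive range. Its call (0.89 ± 0.30, adjusted p = 0.044) ended without GFP-negative 1 (0.54, adjusted p = 0.16), GFP-negative 3 (0.86, adjusted p = 0.09), GFP-positive 1 (0.98, adjusted p = 0.069) or GFP-positive 3 (0.64, adjusted p = 0.19). Gad2, the other GABA-making enzyme, was called higher but lay below background on all 6 arrays, so that no rise is given, and its call ended with the title numbers as a term. Npy, a neuropeptide, was at least 1.56-fold lower. The call of Tfap2a, a relative of Tfap2b (-0.88 ± 0.28, adjusted p = 0.032), ended on the 6 sorted arrays alone (adjusted p = 0.10), after cyclic loess, after centring, with the mean of probe sets, with the title numbers as a term and without GFP-positive 1 or 2 or GFP-negative 2. Calb1 and Pcp2, defining markers of Purkinje cells, were below background on all 6 arrays.

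Among 9 measured genes of unipolar brush cells and nuclear glutamatergic neurons (11 listed), which also descend from the rhombic lip, 4 rose and 1 fell, with a median of 0.14 and summed signals of 1300 to 1724 in GFP-positive and 357 to 514 in GFP-negative cells. Otx2, a homeobox gene of posterior granule progenitors and a known oncogene in medulloblastoma, read 8.63, 8.93 and 8.71 in GFP-positive cells and 3.33, 5.10 and 3.70 in GFP-negative cells (4.71 ± 0.63, adjusted p = 0.00012). Only GFP-negative 2 read above background there. Otx2 is also a choroid plexus gene, and GFP-negative 2 was the array with the highest choroid plexus signal. A link between these was not tested. Eomes, the T-box factor of unipolar brush cells, read 8.81, 8.04 and 8.88 against 5.76, 5.43 and 4.86 (3.23 ± 0.61, adjusted p = 0.0017). Tbr1, Lmx1a and Lmx1b, of nuclear and unipolar brush cells, were below background on all 6 arrays. Irx3, an Iroquois homeobox gene, was at least 8.07-fold lower. Slc17a6, described above, was another rise. The last, Lhx2, was at least 1.56-fold higher, a call that ended without any single array but GFP-negative 3 (adjusted p = 0.074 to 0.14), after cyclic loess (0.083) and with the title numbers as a term (0.34).

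Of 18 measured genes that respond to stimulation and stress within minutes to hours (20 listed), 7 fell and 1, Ddit4, rose, with a median of -1.19. The falls were 5 without any single array, 4 with the title numbers as a term, which also ended the call of Ddit4, and 12 on the 6 sorted arrays alone. Nr4a1, a nuclear receptor induced by activity, read 6.37, 6.69 and 6.99 in GFP-positive cells and 10.91, 11.40 and 10.91 in GFP-negative cells (-4.39 ± 0.46, adjusted p = 1.6e-05). Hspa1b, an inducible heat shock protein, read 4.22, 4.19 and 5.94 against 9.21, 11.53 and 9.93 (-5.44 ± 0.85), and Atf3, a stress factor, fell by 3.93 ± 0.75. For each gene GFP-negative 2 was highest among the GFP-negative arrays and GFP-positive 3 among the GFP-positive arrays. Fos read 12.33, 12.06 and 12.11 in GFP-positive cells and 13.31, 13.01 and 13.35 in GFP-negative cells, high in both (-1.06 ± 0.37, adjusted p = 0.054, and 0.0033 on the 6 sorted arrays alone). Of 15 measured interferon and MHC class I genes (21 listed), 5 fell and 1 rose, with a median of -0.52. Cxcl10, an interferon-induced chemokine, was at least 26.1-fold lower, with 4.07, 4.11 and 4.14 against 8.90, 9.74 and 9.79, and H2-K1, a class I heavy chain, fell by 3.40 ± 0.40. Psmb8, an immunoproteasome subunit, was at least 2.86-fold lower. H2-D1, another class I gene, was called lower by 1 of its 5 probe sets, and their mean did not pass (-0.19, adjusted p = 0.52). Rsad2, an antiviral enzyme, was called lower by 1 of 3 probe sets, whose mean did not pass either (-1.49, adjusted p = 0.15), and its call ended without GFP-positive 1 or 2 or GFP-negative 2 or 3 (adjusted p = 0.051 to 0.067). The 1 rise was that of Stat2, a transducer of interferon signals, at least 1.11-fold higher, a call that ended without any single array but GFP-negative 1 (adjusted p = 0.053 to 0.10) and with the title numbers as a term (0.12). After centring the median of the list was -0.02, beside 0.54 for all genes. The microglial markers that moved with these genes are given above, and their part in these results was not tested, nor was that of the dissociation and sort.

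The sexes of the animals were not labelled. Xist, the RNA that silences an X chromosome in female cells, read 5.60, 11.84 and 11.89 in GFP-positive cells and 11.13, 11.73 and 11.15 in GFP-negative cells. The Y-linked gene Eif2s3y read 9.52, 8.42 and 8.55 in GFP-positive and 9.27, 8.72 and 9.15 in GFP-negative cells. GFP-positive 1 stood apart with the lowest Xist and the highest Eif2s3y of the 6 arrays. The 4 measured sex-linked genes (5 listed) had a median difference of -0.50, and the values of Xist overlapped between the groups.

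Set beside the tumours of the series, as a description, the 15 genes with the largest rises had group means above background for all 15 in Shh-type tumours and for 13 in each kind of Myc-type tumour. Their median level was 10.5 in GFP-positive cells, 10.2 in Shh-type, 8.51 in Myc-type primary and 7.12 in Myc-type secondary tumours and 4.47 in GFP-negative cells. Atoh1 averaged 8.92 ± 0.39 in GFP-positive cells, against 9.74 ± 0.41 in Shh-type, 4.62 ± 0.18 in Myc-type primary and 5.31 ± 1.39 in Myc-type secondary tumours (SD, n = 3 each). Of the 15 genes with the largest falls, none had a mean above background in GFP-positive cells and all did in GFP-negative cells. Shh-type tumours had 13 of these above background, Myc-type primary tumours 14 and Myc-type secondary tumours 11.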

How the data were processed

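The authors deposited log2 signals made by RMA (robust multi-array averaging) in Partek 6.5, per the submitters' processing notes; the RMA settings are not given in the sources used here. Of 45141 probe sets, those that were controls (104), had no gene listed (15588) or had several (551) were left out, and the other 28898 gave 17097 genes. Symbols were updated for 28689 probe sets by gene identifier from the GRCm38.p6 RefSeq table and kept for 209. A gene was read by its probe set with the highest mean over the 15 arrays. This chose among probe sets for 7180 genes, of which 21 had probe sets called in both directions. The other probe sets of a called gene did not always pass. Among others, 1 of 2 was called for Gli3, Neurog1, Ccnd3, Boc and Slc6a5, and 2 of 5 for Tyms.

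One two-sided limma 3.58.1 fit (R 4.3.3; lmFit and eBayes) covered 5 groups of 3 arrays, with 10 residual and 2.54 prior degrees of freedom. The number of arrays limits the precision. The fit was tested on simulated data. Lists (27, with 584 genes, 521 of them measured, some in more than 1 list) were described by counts and medians only. The members, lists and motifs were chosen with earlier results of these data known. Named genes were the 15 largest rises and 15 largest falls that passed, were at least 2-fold and did not overlap (predicted genes left out), the sort markers, Myc, Mycn, Mycl, Gli1, Ptch1, Cdkn2c and Trp53, and up to 6 genes per list by smallest adjusted p. Members whose role a sentence needed were added after their values were seen.

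The alternatives averaged the probe sets of a gene, tested each probe set alone, removed genes whose 5 group means all lay under 3.70 (the lowest 25% of values), applied cyclic loess, centred arrays on the median gene, used only the 6 sorted arrays, added an intensity trend with robust variance (statmod 1.5.0) or array weights, added a term for the 2 runs of title numbers, or left out 1 sorted array. Figures were drawn in Python 3.11.15 with matplotlib 3.10.9, pandas 2.3.3 and numpy 2.4.6.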

Additional observations from a re-analysis of the deposited data

How the results depend on the processing

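No paired analysis was possible because the labels carry no replicate numbers that could tie a GFP-positive to a GFP-negative sample. The 4505 calls became 9128 after centring, 7225 with array weights and 7416 over every probe set by itself. The rises became 7516, 3681 and 4033 under these settings, and the falls 3544 with array weights. Calls of at least 2-fold became 4236 after centring and 4346 over every probe set. Leaving out single arrays gave 3426 to 4668 calls, 1515 to 2318 rises, 1911 to 2685 falls and 2416 to 2800 calls of at least 2-fold. Rises made up 47.7% of the calls, 82.3% after centring and 38.7% after cyclic loess. The cause of these shifts was not tested.

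Of the named genes, 25 lost their call with the term for the run of title numbers, among them Pax6, Neurod2, Sox11, Nfix, Mki67, Cdc20, Jag1, Ddit4 and Gad1. After cyclic loess 12 did, and after centring 4, Rsph1, Btg2, Kif7 and Tfap2a. Leaving out single arrays also ended the calls of Mfng, Gria2, Lhx2, Stat2, Rsad2, Pecam1, Mcm7 and Mlx in at least 1 case. The genes whose sign turned were uncalled. After centring the difference was 0.47 for Mycl, 0.25 for Ptch1, 0.42 for Epb42, 0.28 for Eif2s3y, 0.47 for Kdm5d, 0.28 for Calb1, 0.45 for Gabra6, 0.17 for Cdkn1a, 0.44 for Cbln3, 0.14 for Meis2, 0.38 for Sox4 and 0.47 for Tbr1. With the mean of probe sets it was 0.14 for Mycl, 0.036 for Ptch1, 0.082 for Kdm5d, 0.37 for Cbln3 and 0.39 for Sox4. With the term for the title numbers it was 0.69 for Mycl, 0.71 for Kdm5d, -0.10 for Cdkn2c, -0.19 for Grin2c, -0.035 for Id2, -0.047 for Lhx9, -0.14 for Lmx1a, -0.19 for Lmx1b and -0.18 for Shh. After cyclic loess it was -0.032 for Pcna, -0.18 for Smo, -0.13 for Id2 and 0.017 for Tbr1, and with array weights 0.011 for Eif2s3y and 0.0096 for Cbln3. Without single arrays it ranged from -0.39 to 0.27 for Mycl, -0.031 to 0.13 for Cdkn2c, -2.62 to 0.53 for Xist, -0.45 to 0.39 for Kdm5d, -0.079 to 0.19 for Smo, -1.01 to 0.27 for Cdkn1a, -0.011 to 0.35 for Grin2c, -0.063 to 0.30 for Id2, -0.051 to 0.17 for Shh and -0.10 to 0.029 for Tbr1.

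The number of arrays and the background signal limit these values. A gene below background has only a bound, and 5635 genes were below it on all 6 sorted arrays.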

Other observations

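Igf2, Igf1 and Cxcl12 are members of lists described above whose values were not yet given. Igf2, an insulin-like growth factor of mesenchymal and meningeal cells, read 5.77, 5.97 and 6.36 in GFP-positive cells and 10.47, 11.45 and 10.29 in GFP-negative cells (-4.71 ± 0.70, adjusted p = 0.00027 by limma). Igf1, a growth factor made by microglia among other cells, read 3.94, 3.91 and 4.13 in GFP-positive cells and 7.28, 9.49 and 7.02 in GFP-negative cells, at least 8.94-fold lower. Like the microglial markers, Igf1 was highest on GFP-negative 2. Cxcl12, the chemokine that holds granule progenitors at the pial surface, read 9.39, 8.83 and 9.25 in GFP-positive cells and 9.86, 10.64 and 9.59 in GFP-negative cells. It was well above background in both populations and did not pass (-0.87 ± 0.61, adjusted p = 0.36 by limma). The groups did not overlap, as for 42.8% of all genes, and Cxcl12 was called lower with array weights (-1.25, adjusted p = 0.043 by limma).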
